A study of Homo sapiens with 2 samples.

Results

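The GSE1 megabase is the interval of chromosome 16 from 85000000 to 86000000 in the hg19 build, and it was chosen by its number of listed oestrogen receptor α (ERα) peaks, the highest among 1 Mb windows cut at whole megabases. A peak belonged to it when its centre lay in the interval, and 60 of the 12688 listed peaks did (0.473%). That count is therefore a description of how the interval was picked, and no test was made on it. The peaks come from T47D, an established human breast cancer cell line that carries ERα. The series has 1 immunoprecipitated library, made with the H-20 antibody against ERα, and 1 input library made with no antibody. Cells of both were held for 48 h without steroids and then received 10 nM 17β-estradiol for 45 min. Neither library was repeated, so no value below carries a replicate error or a test, and none measures a response to estradiol. The number of reads behind a peak is unknown.

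ERα is a nuclear receptor that binds DNA after taking up oestrogen. It binds at oestrogen response elements, which pair the core motif GGTCA with its reverse complement, or through partner factors, and most of its sites in breast cancer cells lie away from promoters. Sites often occur in groups, and a group can act on a gene far from it. GSE1, also named KIAA0182, encodes a coiled-coil protein found in histone deacetylase corepressor complexes. IRF8 encodes a transcription factor of the interferon regulatory factor family that directs the development of monocytes, dendritic cells and B cells. The GSE1 interval used here runs from 85645029 to 85709812 on the plus strand, and that of IRF8 from 85932774 to 85956211. Both intervals are those given with the definition of the megabase, and they were not checked against an hg19 annotation. Gene tables also hold longer GSE1 transcripts whose first exons lie at lower positions. Upstream here means only before the start of the interval used, and an upstream peak may lie inside a longer GSE1 transcript.

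In the order of the RefSeq table for GRCh38.p14, 4 protein-coding genes stand between GSE1 and IRF8. They are GINS2, a subunit of the replicative helicase complex, C16orf74, EMC8, a subunit of a membrane protein insertion complex, and COX4I1, a subunit of cytochrome c oxidase. Before GSE1 stand ZDHHC7, a palmitoyltransferase known to act on sex steroid receptors, KIAA0513 and CIBAR2, and FOXF1 follows IRF8. Coordinates of that build were not set against the hg19 peaks, so no peak is placed in any of these neighbours.

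The promoter sequences of GSE1 and IRF8 are shown because 1 listed peak covers the start of the GSE1 interval and none lies in the IRF8 interval. They are the 250 bases before the RefSeq start, in GRCh38.p14, on the plus strand. These RefSeq starts were not matched to the starts of the hg19 intervals. The distance from the GSE1 start to the first IRF8 start differs between them, so the windows may belong to other transcript starts. GSE1 is chr16:85613072-85613321 and IRF8 is the first of 2 listed starts, chr16:85902580-85902829. Capitals mark the core motif, searched as GGTCA or TGACC so that both strands are read.
GSE1: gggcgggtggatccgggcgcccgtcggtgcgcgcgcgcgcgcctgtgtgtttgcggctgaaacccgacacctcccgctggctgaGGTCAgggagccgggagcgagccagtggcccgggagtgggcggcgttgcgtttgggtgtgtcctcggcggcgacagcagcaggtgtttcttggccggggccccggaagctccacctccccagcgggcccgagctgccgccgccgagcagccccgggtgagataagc
IRF8: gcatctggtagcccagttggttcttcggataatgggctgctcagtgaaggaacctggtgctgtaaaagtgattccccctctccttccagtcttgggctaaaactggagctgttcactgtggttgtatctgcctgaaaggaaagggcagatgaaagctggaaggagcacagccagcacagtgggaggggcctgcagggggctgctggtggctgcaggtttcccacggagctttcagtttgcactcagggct
The GSE1 sequence held 1 core motif, whose first base lies 166 bases before the start, and the IRF8 sequence held 0. The window of the second IRF8 start held 1. Of all 35116 promoter windows of this length in the table, 32.6% held a core motif, so a single match is common. The full element, GGTCA and TGACC with 3 bases between, was in 14 of these windows (0.0399%) and in neither of the genes. Such a match is a description of letters and not a binding site. Whether the GSE1 window lies under the listed peak was not tested, since it follows another build.

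The 60 peaks were concentrated before GSE1 and were sparse around IRF8. Before the GSE1 interval lay 48 peaks, 2 had their centre in it, and 10 lay beyond it. Per 100 kb this is 7.44 peaks upstream (exact Poisson 95% interval 5.49 to 9.87), 3.09 in GSE1 (0.374 to 11.2) and 3.45 beyond it (1.65 to 6.34). Only counting error is covered, as if peaks were independent, which grouped peaks are not. The interval of the GSE1 sector includes the densities of both others, and the upstream and beyond intervals overlap. Overlap is not a comparison of densities, and the differences between sectors were not tested.

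In steps of 100 kb the megabase rose from a nearly empty start to a dense middle and back. The first 3 steps held 1, 4 and 0 peaks. The fourth, from 85300001 to 85400000, held 17, and the next 4 held 9, 12, 7 and 7. The last 2 steps held 1 and 2 peaks. The order by covered bases was different. Peaks covered 22.2 kb of the sixth step, from 85500001 to 85600000, against 17.8 kb of the fourth, although the sixth held fewer peaks.

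**Figure D1:**
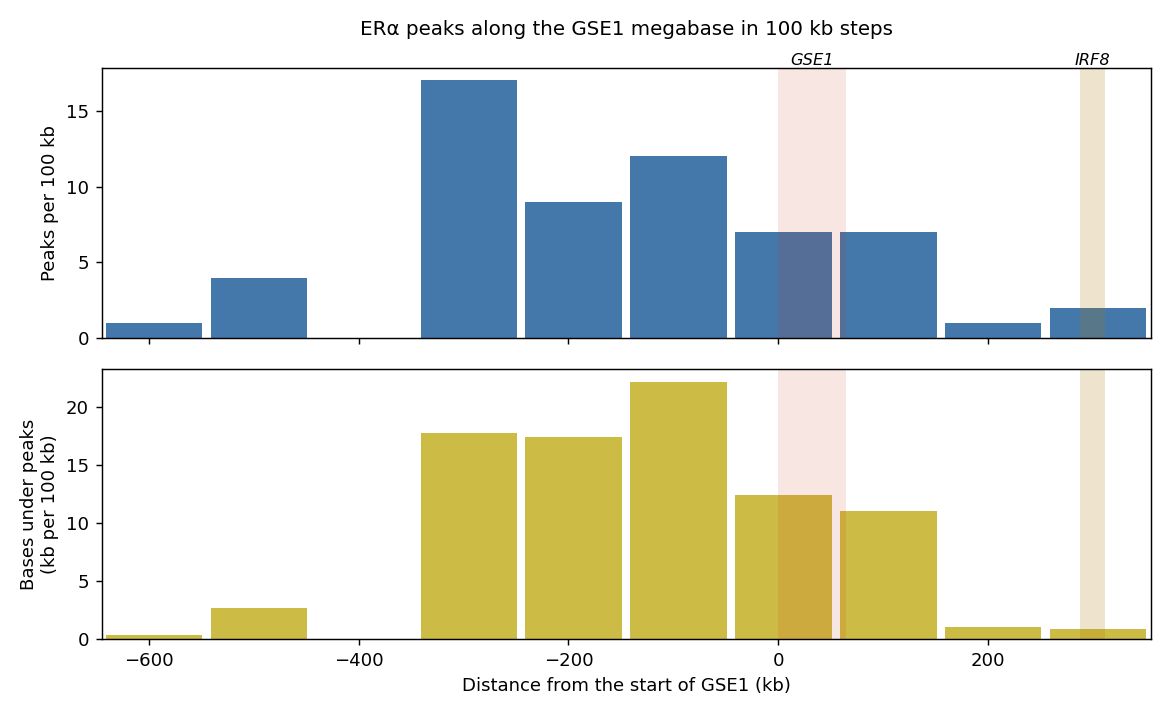
ERα peaks along the megabase in steps of 100 kb, by distance from the GSE1 start in kb. The upper bars give the number of peaks and the lower bars the kb under peaks, with the GSE1 and IRF8 intervals shaded. The tallest upper bar is 17 peaks and the tallest lower bar 22.2 kb, in different steps.

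At its lower edge the megabase had no dense border, whereas a group of peaks stood just past its upper edge. The last peak before it, at 84917930 to 84918649, scored 340.74 and had its centre 81.7 kb outside. The first inside, at 85089029 to 85089418, scored 65.88 and lay 89.2 kb from the bound. The last inside, at 85969210 to 85969633, scored 60.93. The next, at 86002664 to 86003354, scored 233.67 and lay 3.01 kb outside. The dense part therefore lies well inside the lower bound. It also ends well before the upper one, since the last 2 steps of 100 kb held 1 and 2 peaks. Past the upper bound, the peak at 86002664 is followed by peaks at 86004203 to 86004899, with a score of 1831.64, and 86008539 to 86009407, with 393. The neighbouring 1 Mb windows had 21 and 10 peaks.

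The scores in the megabase ran from near the lowest of the list to 3100, and none of the 34 listed scores above 3100, up to 3230.05, lay here. The score is the number the authors' peak caller gave each peak, its scale is not stated, and it was used only to rank peaks within this list. It ran from 51.17 to 3100 with a median of 165.355 (lower quartile 73.2), beside a median of 128.265 over the list. A score at or above the list median was held by 32 of the 60 peaks, or 53.3% (Wilson 95% interval 40.9 to 65.4%), and 25 (41.7%) scored under 100, beside 41.1% of the list. Like the other shares here, this interval covers counting error only. The median and the share under 100 were thus near those of the list. So was the share at or above the list's upper quartile, with 17 peaks or 28.3% (18.5 to 40.8%) beside 25% of the list. Within the upper part values were higher: the upper quartile was 681.7 beside 347.155 over the list. Exactly 3100 was scored by 6.67% of the peaks (2.62 to 15.9%), beside 1.85% of the list, a share that rests on 4 peaks.

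The highest score reached in the megabase was 3100, a value that 235 peaks of the list share, and 4 peaks had it. From the lowest position they were at 85321572 to 85323113, 85355302 to 85356301, 85507117 to 85509736 and 85785166 to 85787693. Their widths were 1542, 1000, 2620 and 2528 bp. Thus 3 of these lay before GSE1 and 1 beyond it, and the pair nearer to GSE1 was the wider. Their centres were 322.7, 289.2 and 136.6 kb before the GSE1 start and 141.4 kb after it. None of the 4 lay in the GSE1 or the IRF8 interval.

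The next 6 scores all belonged to upstream peaks. Peaks at 85495218 to 85500544 and 85339463 to 85340909 scored 2900.82 and 2710.13. The peak at 85491785 to 85495144 scored 2151.28, that at 85603671 to 85605815 scored 1889.09, and that at 85524681 to 85527134 scored 1819.51. The tenth, at 85504192 to 85506712, scored 1778.99. Beyond GSE1 the second highest score was 476.92, at 85779722 to 85780419. Of the 10 highest-scoring peaks, then, 9 lay upstream, where 48 of the 60 peaks lay.

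The median score was 171.67 upstream (quartiles 78.6 and 810.0) and 70.06 beyond GSE1 (61.6 and 169.5). At or above the list median were 26 of the 48 upstream peaks, or 54.2% (40.3 to 67.4%), and 4 of the 10 beyond, or 40.0% (16.8 to 68.7%). These Wilson intervals overlap, but they cover counting error only, as if peaks were independent. Overlap is not a comparison of the shares, and the difference between them was not tested.

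**Figure D2:**
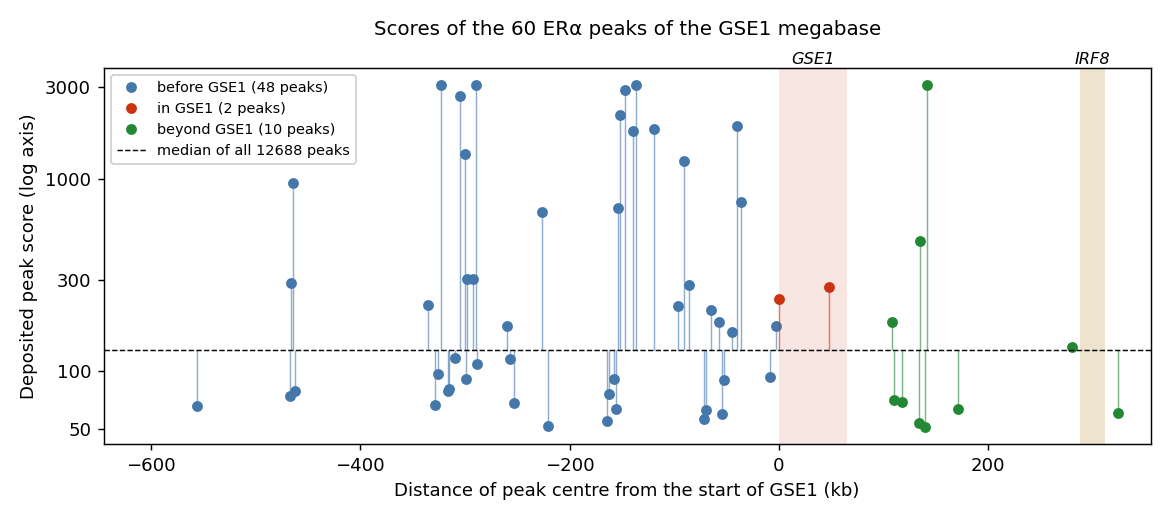
Deposited score (log axis) of each of the 60 peaks against the distance of its centre from the GSE1 start in kb. Points are single peaks coloured by sector, lines join them to the median of all 12688 peaks (dashed, 128.265), and shading marks GSE1 and IRF8. The 4 peaks at 3100 stand on both sides of GSE1 and outside both genes.

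The 60 peaks were wide. The median width was 1062.5 bp (quartiles 645.75 and 2057), beside 504 bp among the 12628 peaks elsewhere. Of the 60, 31 (51.7%) were wider than 1029 bp, the 95th percentile of the list, and 15 of the 50 widest peaks of the whole list lay here. Among the 402 windows of 1 Mb with 10 or more peaks, the megabase had the fourth highest median width. The windows above it held 14, 20 and 10 peaks, with medians of 1292, 1279 and 1101 bp. The first is on chromosome X from 114000001, and the others adjoin on chromosome 3, from 195000001 and 196000001. Their median scores were 251.62, 106.17 and 73.905, so wide peaks, also at low scores, are not particular to the megabase. Width comes from the same peak list that chose the interval, so this is given with no test.

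Covered length put the megabase further from other dense windows than the count did. Its peaks covered 86.03 kb, or 8.60% of the sequence. The window with the next highest covered length, on chromosome 17 from 38000001 to 39000000, had 29.8 kb under 39 peaks with a median width of 688 bp. The window with the next highest count, on chromosome 10 from 79000001 to 80000000, had 27.9 kb under 42 peaks with a median width of 588.5 bp. The megabase thus held 60 peaks against 42 and 39, but covered 3.08 and 2.88 times as many bases. In the windows just before and just after it on chromosome 16, the median widths were 495 and 646 bp.

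Width changed along the megabase. The first 19 peaks, from 85089029 to 85356940, had a median of 631 bp and a range from 390 to 1542 bp. The next 39, from 85383706 to 85816301, had a median of 1493 bp (quartiles 995.5 and 2442) and a range from 381 to 5327 bp. The last 2, which flank IRF8, measured 472 and 424 bp. The 39 peaks are called the wide-peak stretch here. It was delimited after the widths had been seen, as running from the first peak over 2 kb wide to the last peak before a gap of 109 kb (108642 bp). Of its peaks 29 (74.4%) were over 1 kb wide, beside 3 (15.8%) of the first 19 and 5.52% of the list. By this cut the first 19 could hold no peak over 2 kb, so their contrast with the stretch partly restates it.

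The stretch is not the same as the GSE1 interval. It begins before GSE1, contains it and runs on beyond it. Its 29 upstream peaks had a median width of 1725 bp and, from the first to the last of them, covered 20.8% of 259.4 kb. Upstream peaks as a whole had a median of 1200.5 bp (quartiles 639.25 and 2057) and peaks beyond GSE1 one of 1025 bp (686.75 and 1511). The sector medians lie close because the upstream sector joins 19 mostly narrow peaks with 29 mostly wide ones.

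**Figure D3:**
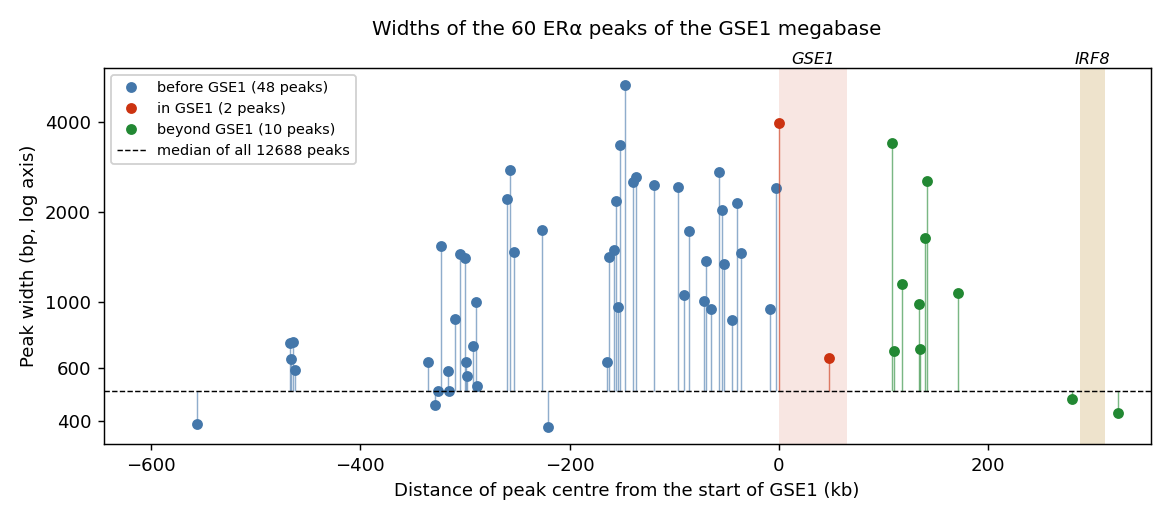
Width in bp (log axis) of each of the 60 peaks against the distance of its centre from the GSE1 start in kb. Points are single peaks coloured by sector, and the dashed line is the median of all 12688 peaks, 505 bp. The first peak over 2 kb, of 2214 bp, stands 260.2 kb before GSE1, with 3 peaks of 1400 to 1542 bp before it, and both peaks beside IRF8 are under 505 bp.

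The widest peak of the megabase, at 85495218 to 85500544, measured 5327 bp and had the fifth rank in width among all 12688. The next was the peak over the GSE1 start, with 3952 bp and rank 7, followed by one beyond GSE1 at 85751255 to 85754645, with 3391 bp and rank 9. A peak at 85491785 to 85495144 measured 3360 bp. The narrowest of the 60, at 85424324 to 85424704, measured 381 bp and also lay in the wide-peak stretch. Wide peaks thus stood at, before and beyond GSE1.

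The peaks of the stretch were wide at low and at high scores. Across the list wider peaks score higher, so widths were set side by side within 4 score classes bounded by the list's quartiles, and at 3100. Among peaks scoring from 50 to 70.52, the 11 of the wide-peak stretch had a median width of 1145 bp, whereas the 3158 peaks outside the megabase had 399 bp. Between 70.54 and 128.24 the medians were 1379 bp for 6 peaks and 455 bp, and between 128.29 and 347.13 they were 2308 bp for 10 peaks and 530 bp. Between 347.23 and 3094.84 they were 1939 bp for 10 peaks and 667 bp. The ratio lay between 2.87 and 4.35 in these 4 classes, and it partly restates how the stretch was delimited, since that used width. For all members of the megabase the medians were 1037.5, 704.5, 947 and 1462 bp in the same classes, or 2.60, 1.55, 1.79 and 2.19 times those elsewhere.

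At a score of 3100 the 2 peaks of the stretch measured 2528 and 2620 bp, and the 231 peaks elsewhere had a median of 1044 bp. Among the first 19 peaks, the 3 lower classes had medians of 421 bp for 2 peaks, 589.5 bp for 8 and 636.5 bp for 4. Their higher scorers were wide too, with a median of 1400 bp for 3 peaks between 347.23 and 3094.84 and 1271 bp for the 2 at 3100. Peaks both low and wide were counted too, at limits of score and width that were not planned. In the list, 83 of the 5216 peaks scoring under 100 (1.59%) were over 1 kb wide. In the megabase 11 of 25 such low-scoring peaks (44.0%) were, which is 13.3% of all peaks both low and wide. Other windows with wide peaks were not compared on this share.

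Width also followed score less closely here. The Spearman correlation across peaks was 0.403 for the 60 peaks and 0.631 for the 12628 others. It was 0.775 for the first 19 peaks and 0.471 for the 39 of the wide-peak stretch, with 0.553 for the upstream part of that stretch. In the chromosome 10 and chromosome 17 windows it was 0.526 and 0.619. In the windows before and after on chromosome 16 it was 0.669 and 0.6. Peaks of 1 library share its depth and are not independent, so these are descriptions. Neither read depth nor the copy number of this stretch in T47D cells was measured here.

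**Figure D4:**
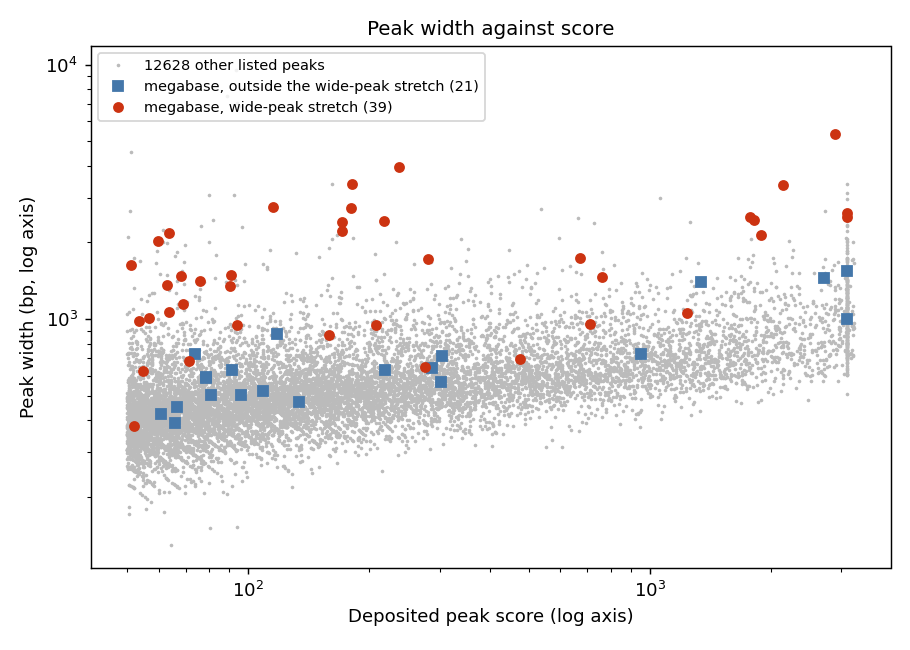
Width in bp against score for every listed peak, both on log axes. Grey points are the 12628 peaks outside the megabase, squares its 21 peaks outside the wide-peak stretch and circles the 39 within it. Of the circles 29 are over 1 kb, at scores from 51.17 to 3100, and of the 19 squares of the first stretch 3 are.

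Gaps between neighbouring peaks were short. Edge to edge, the 59 gaps inside the megabase had a median of 3.34 kb and ran from 7 bp to 126.8 kb, beside a median of 53.6 kb over the list. A short median follows from the high count that chose the interval. Upstream, 47 gaps had a median of 3.14 kb, and beyond GSE1, 9 gaps had one of 7.09 kb. The latter was 21303 bp when peaks within 500 bp were joined and 25076 bp for peaks at or above the list's median score. At or above the upper quartile the order turned, with a single gap of 4746 bp beyond GSE1 and a median of 12127 bp upstream. The single gap between the 2 GSE1 peaks was 44.8 kb. The last peak centred upstream stood 143 bp from the peak that covers the GSE1 start, and the gap across the end of GSE1 was 58.5 kb.

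Some gaps were far shorter than the peaks beside them. Of the 59, 10 (16.9%) were under 200 bp, beside 2.76% over the list, which again follows in part from that count, and 8 of the 10 lay in the wide-peak stretch. None was that short in the chromosome 10 window, and 3 of 38 were in the chromosome 17 window. The shortest, 7 bp, separated peaks at 85589501 to 85591528 and 85591536 to 85592878. Whether listed peaks this close are 1 binding site or several was not tested.

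When peaks whose edges lay within 500 bp were joined, the 60 peaks became 45 regions. In all, 25 of the peaks (41.7%) joined at least 1 other, beside 10.2% of the list. The run from 85486459 to 85500544 joined 5 peaks into 14.1 kb and was then the widest of all 12006 regions. A run of 6.50 kb from 85640744 to 85647240, made of 2 peaks, spanned the GSE1 start and ranked sixth. A run of 3 peaks from 85586726 to 85592878 measured 6.15 kb and ranked seventh. Of the 16 joined regions over 4 kb in the list, 6 lay in the megabase.

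**Figure D5:**
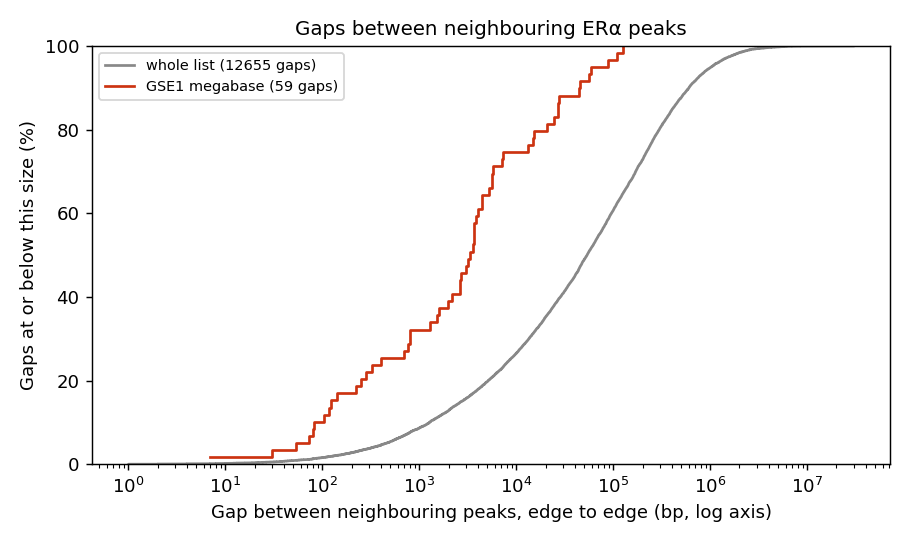
Cumulative share (%) of gaps between neighbouring peaks, edge to edge in bp on a log axis. The grey line is the whole list with 12655 gaps and the red line the 59 gaps of the megabase. The red line reaches 16.9% at 200 bp, where the grey line stands at 2.76%.

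Joined at a distance of 10 kb, the peaks formed 9 clusters of 3 or more, 1 pair and 6 single peaks. The clusters held 52 peaks (86.7%), beside 22.2% of peaks over the list, a contrast that follows from the count that chose the interval. The largest had 14 peaks from 85309765 to 85356940, that is 47.2 kb, of which peaks covered 24.1%. It held 2 of the 4 peaks at 3100, at 85321572 and 85355302, and 5 peaks under 100. Its end peaks were small beside these: the first, at 85309765 to 85310395, scored 220.04, and the last, at 85356419 to 85356940, scored 109.11.

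A cluster of 9 peaks from 85480318 to 85509736 was shorter and more filled. Peaks covered 69.7% of its 29.4 kb, the median gap was 364.5 bp, and the median score was 708.99. Its first peak scored 54.96 and its last, at 85507117 to 85509736, 3100. This rise was not even, as the fourth peak scored 63.61 and the fifth 708.99. The other cluster of 9, from 85572877 to 85609256, had a median score of 159.19 and 38.2% of its 36.4 kb covered. It ran from a peak of 56.67 to one of 762.48, with a highest score of 1889.09. Clusters of like size thus differed in filling and in score.

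The remaining clusters of 3 or 4 peaks differed in the same way. That at 85177594 to 85182951 held 4 narrow peaks of 590 to 732 bp with a top score of 952.49, far before the others. That at 85383706 to 85393140 held 3 peaks of 1471 to 2759 bp with a top score of 171.82. That at 85547809 to 85559606 held 3 peaks of 1058 to 2430 bp with a top score of 1240.11. Clusters beyond GSE1, at 85751255 to 85763592 and 85778658 to 85787693, had top scores of 181.30 and 3100. In the second of these, the peak at 3100 stood 80 bp from a peak of 1633 bp that scored 51.17, the lowest score of the 60.

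At GSE1 itself, a cluster of 3 peaks from 85635938 to 85647240 lay over the start of the interval. The peak over the start, at 85643289 to 85647240, reached 1740 bases before it and 2211 bases into the gene interval, and scored 238.46. The peak before it, at 85640744 to 85643145, was 2402 bp wide and scored 171.52. The first of the 3, at 85635938 to 85636883, was 946 bp wide and scored 93.84. So the cluster at the start was wide but held no score above 238.46, and 23 peaks of the megabase scored at least that. The only other peak in the 64.8 kb of GSE1, at 85692072 to 85692718, was 647 bp wide and scored 275.75. It lay 44.8 kb from the first and 47.4 kb inside the gene by its centre.

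IRF8 stood in the sparse end of the megabase. No listed peak lay in its 23.4 kb. The nearest peak before it, at 85924944 to 85925415, was 472 bp wide, scored 134.27 and ended 7.36 kb before the interval. The nearest after it, at 85969210 to 85969633, was 424 bp wide, scored 60.93 and began 13.0 kb past the interval. Between the wide-peak stretch and the first of these, 109 kb held no listed peak. Both peaks were below the list median in width, and 1 was below it in score.

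Within 50 kb of IRF8 there were 4 peaks, and the other 2 lay outside the megabase. They were at 86002664 to 86003354 with a score of 233.67 and at 86004203 to 86004899 with a score of 1831.64, which began 46.5 and 48.0 kb past the interval. The highest score near IRF8 was therefore beyond the bound of the megabase. A place with no listed peak is not shown to lack binding, because the depth of the library is unknown. Which gene, if any, responds to these peaks was not measured.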

How the data were processed

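The deposited file is 1 list of ERα peaks over input, in hg19 coordinates, per the submitters' processing notes, which also list CASAVA 1.8, Bowtie 0.12.9 and HOMER with no role. Per the file, each peak name starts with MACS. The sources used here do not state the caller's version or threshold, or how duplicate and multiply mapping reads were treated. The deposited score has no stated scale and was used to rank or divide peaks only. Starts count from 0 in the file, and 1 was added for printing. No hg19 sequence was used here, so the planned motif count in peaks was not run, and promoters come from RefSeq for GRCh38.p14.

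Peaks were placed by their centre. Width, edge-to-edge gap and joining at 500 bp and 10 kb were computed with Python 3.11.15, NumPy 2.4.6, pandas 2.3.3 and SciPy 1.17.1. Width, gap and joining at 10 kb were checked on simulated data, in a window that held only planted peaks of known width and spacing. Joining at 500 bp was not checked in this way. Figures used matplotlib 3.10.9. No test was made. The region, its members and the lists were chosen with earlier results of these data known. The peaks named are the 10 highest-scoring, the widest and narrowest, those in GSE1 or within 50 kb of IRF8, the ends of clusters of 5 or more and those at the bounds. Other named peaks, joined runs and the wide-peak stretch were chosen after their values were seen. Alternatives were higher score limits, joining of near peaks, other distances, shifted bounds and a GSE1 interval widened by 5 kb.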

Additional observations from a re-analysis of the deposited data

How the results depend on the processing

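Of 58 alternative values, 37 stayed within 1.5 times a count or within the order-statistic 95% interval of a median (the range, for under 6 peaks), and 21 moved. With peaks at or above the median score, the megabase held 32 peaks, 26 of them upstream and 4 beyond GSE1. The upstream medians were then 1502 bp for width, 735.735 for score and 4464 bp for the gap, 4 clusters of 3 or more were left with at most 5 peaks, and the wide-peak stretch had a median of 2308 bp. With peaks at or above the upper quartile of score, 17 remained, 15 upstream, 0 in GSE1 and 2 beyond, the last with a median score of 1788.46. The upstream medians were 1542 bp, 1819.51 and 12127 bp, and the stretch had a median of 2299.5 bp. Under either score limit counts cannot rise and median scores cannot fall, by construction. Joining peaks within 500 bp left 1 region centred in GSE1, of 647 bp. The joined region of 6.50 kb still covered the GSE1 start, but its centre fell before the start, so it counted as upstream. The median width in GSE1 went from 2299.5 to 647 bp, which counted as within the range of the 2 peaks. Beyond GSE1, where few peaks make the interval wide, medians counted as within it still shifted: the gap from 7089 to 21303 bp on joining and 25076 bp at the median score, the score from 70.06 to 134.27 and 329.11, and the width from 1025 to 1613 bp at either score limit. A window 500 kb higher held 37 peaks, and 2 peaks lay within 20 kb of IRF8. The width of the stretch over the list median, 2.96, was 3.85, 3.34 and 3.15 with the median score, the upper quartile and the joining, settings added after seeing the data. The planned motif count in peaks was not run, as it needs hg19 sequence. No paired analysis was possible because neither library has a replicate. Unknown depth limits which weak sites entered the list.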
